A study of Rattus norvegicus with 4 samples.

Results

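Liver X receptor targets that carry sterol out of the cell or handle it were followed as 10 genes across 4 cultures of primary rat astrocytes. The 10 genes were Abca1, Abcg1, Abcg4, Apoe, Srebf1, Mylip, Lpcat3, Pltp, Npc1 and Smpdl3a, out of 18166 genes that had a probe with 1 gene symbol. They were taken by symbol, 1 probe for each, and each of the 10 had exactly 1 such probe. The astrocytes came from the cerebral cortex of Sprague-Dawley rats aged 1 day, and microglia and meningeal cells were depleted beforehand in serum-free medium. All 4 cultures were transfected. The untreated culture carried control siRNA, the second carried control siRNA and received interferon-γ (IFN-γ), and the third carried control siRNA and received IFN-γ with a compound that the labels call GW. The fourth carried SHP siRNA and received IFN-γ with GW. Treatment lasted 3 h, and neither the doses nor the full name of GW could be taken from the labels. Each condition was measured on 1 array, so no difference below has a replicate check or a p-value, and a treatment cannot be told apart from a difference between single cultures. Neither SHP siRNA in the absence of GW nor GW on its own was analysed here.

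Liver X receptors are nuclear receptors that bind oxidised sterols and, paired with retinoid X receptors, switch on genes for sterol export when a cell holds much cholesterol. In the brain, astrocytes make most of the cholesterol and pass it to neurons on particles built around apolipoprotein E, which are loaded with lipid by ABC transporters in the membrane. SHP, encoded by Nr0b2, is a nuclear receptor without a DNA-binding domain that represses other nuclear receptors.

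Values are the deposited signals read as log2, a scale judged from their range since no label states it, so a difference of 1 is taken as 2-fold. Array medians over 29489 probes ran from 5.79 to 5.87. All 10 members passed a filter that asked for at least 1 value at or above 5.83, the median of the whole table, as did 11790 of the 18166 genes. No detection call was used. Nr0b2 had log2 signals of 5.33, 5.14 and 5.20 in the control siRNA cultures (untreated, IFN-γ, IFN-γ with GW) and 3.45 with SHP siRNA, which was 3.35-fold lower than its control siRNA counterpart, with all 4 values under 5.83. Of 8 astrocyte markers measured, Gfap, Aqp4, Slc1a3, S100b and Gja1 had log2 signals of at least 10.77 in every culture. Slc1a2 ran from 8.06 to 8.41, Fgfr3 from 8.49 to 8.74, and Sox9 from 5.92 to 6.18, close to the filter. Microglia markers were present too, with all 13 of the 13 measured above the filter, led by Cd68 (10.82 in the untreated culture) and C1qa (10.48).

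With GW on top of IFN-γ, some members had higher signal and Npc1 had lower signal. Mylip was 1.59-fold and Srebf1 1.54-fold higher than with IFN-γ alone, Abcg1 was 1.34-fold higher, and Abcg4 and Abca1 were 1.22-fold and 1.16-fold higher. Npc1 was 2.15-fold lower. Apoe, Pltp, Lpcat3 and Smpdl3a lay below 0, by -0.14, -0.28, -0.11 and -0.20 log2. So 5 members lay above 0 and 5 below, with a median difference of 0.06 beside -0.05 over the 11790 genes.

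At 1.5-fold, 2 of 10 members were higher with GW, beside 2.82% of all genes, and 1 was lower, beside 4.97%. At 2-fold 0 members were higher, beside 0.958% of all genes, and 1 was lower, beside 0.950%. The members and both thresholds were chosen with earlier results of these data known, so these shares describe the list and test nothing. Across all genes the middle 95% of GW differences lay between -0.75 and 0.62 log2. Mylip stood just above that range and Npc1 below it, Srebf1 lay at its upper edge, and the other 7 members lay inside it.

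Markers of the cells in the cultures differed between the cultures as well. Of 13 microglia markers 12 were lower with IFN-γ than untreated (median -0.36), beside 59.8% of all genes. With GW 12 were lower than with IFN-γ alone (median -0.46), beside 57.8%. With SHP siRNA 11 were higher (median 0.17), beside 51.5%. The 13 markers had a summed linear signal of 11455 untreated, 8827 with IFN-γ, 6362 with IFN-γ and GW, and 7031 with SHP siRNA. None of the 13 was below the filter in its highest culture. The 8 astrocyte markers had medians of 0.11, -0.19 and 0.22 in the same comparisons, and a summed signal of 13321, 14878, 13454 and 16276. With SHP siRNA 4 of 6 meningeal or fibroblast markers above the filter were higher, beside 51.5% of all genes, with a median of 0.46. Dcn and Lum stayed below the filter throughout.

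In the 3 comparisons above, most markers stayed within 1.5-fold. Of the 13 microglia markers, 3 were lower by that much with IFN-γ, and 3 were lower and 1 higher with GW. With IFN-γ, Cx3cr1 (-1.23), Csf1r (-0.64) and Trem2 (-0.64) of the microglia list were lower. With GW, the microglia genes Tyrobp (-1.22), Ptprc (-1.16) and C1qb (-0.60) and the oligodendrocyte progenitor gene Pdgfra (-0.85) were lower, and Cx3cr1 (0.68) was higher. With SHP siRNA, Aqp4 (0.71), Col3a1 (0.71), Pdgfra (0.72) and Ptprc (0.59) were higher. C1qb after each of the 3 other scalings and Ptprc with SHP siRNA after cyclic loess no longer reached 1.5-fold. Of all genes, 1.59% were lower by 1.5-fold with IFN-γ. With GW 4.97% were lower and 2.82% higher by that much, and with SHP siRNA 1.42% were higher. Between IFN-γ with GW and untreated the marker differences were larger. There 12 of 13 microglia markers were lower by 1.5-fold (median -0.82), beside 6.62% of all genes. In these mixed RNA samples fewer cells of a type and less RNA per cell cannot be told apart, and the part of these markers in the members' differences was not tested.

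**Figure D1:**
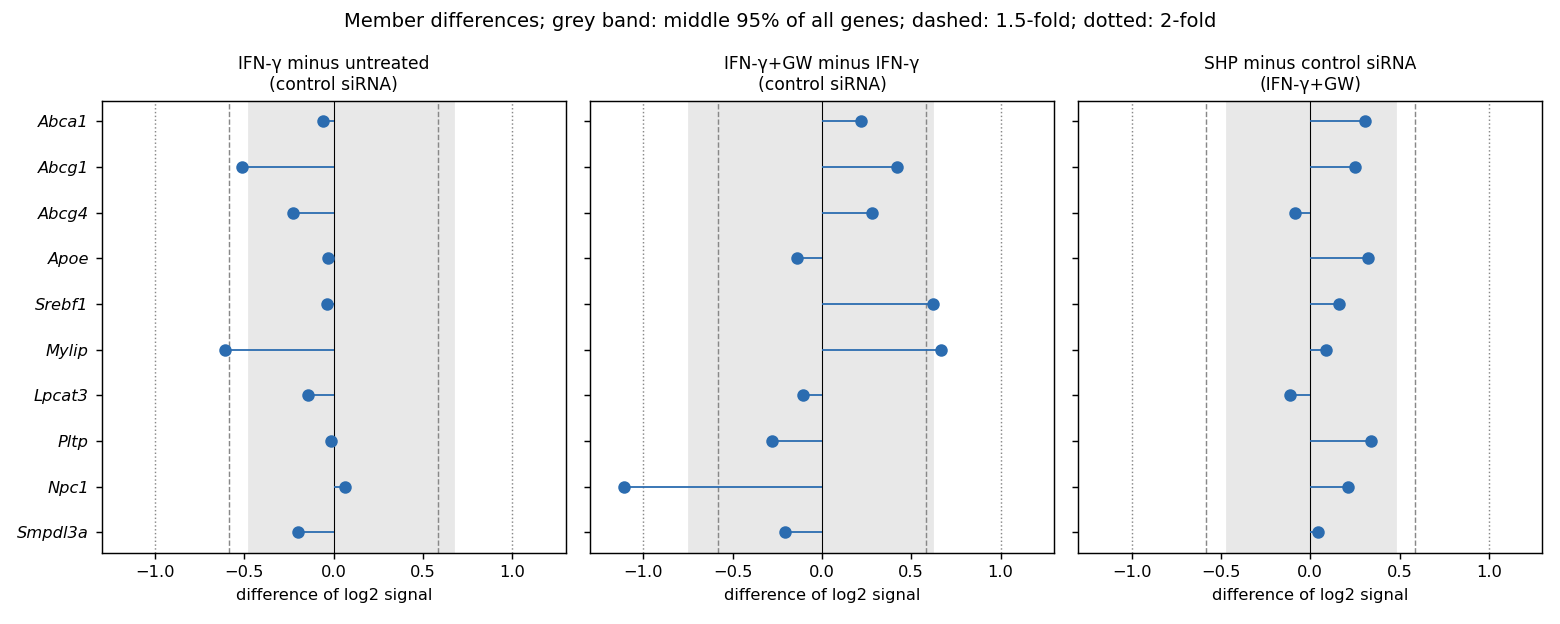
Difference of log2 signal for each of the 10 members (rows) in 3 comparisons between single arrays (panels). The grey band holds the middle 95% of all 11790 genes, dashed lines mark 1.5-fold and dotted lines 2-fold. With GW, Npc1 lies beyond 2-fold below 0, and Mylip and Srebf1 lie past 1.5-fold above it.

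The transporters that load sterol onto particles come first. Abca1, which moves cholesterol and phospholipid to lipid-poor apolipoproteins, had log2 signals of 10.18 untreated, 10.12 with IFN-γ, 10.34 with IFN-γ and GW, and 10.64 with SHP siRNA, IFN-γ and GW. Both cultures with GW lay above both without it, and the SHP siRNA culture was the highest. Its GW difference of 0.22 was small against all genes, 16.3% of which had a higher one. Between the SHP siRNA culture and IFN-γ alone the difference was 0.53 as deposited, short of 1.5-fold (0.58 log2), but past it after quantile normalization (0.59), centring (0.60) and cyclic loess (0.60).

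Abcg1, which exports sterol to already lipidated particles, had 8.72, 8.21, 8.63 and 8.88 in the same order. The IFN-γ culture was the low one, and the untreated value lay between both GW cultures. Measured against the untreated culture, IFN-γ with GW differed by -0.09, a sign that turned after centring (0.00) and cyclic loess (0.02). Measured against IFN-γ alone, the SHP siRNA culture was 1.59-fold higher. Abcg4, a close relative of Abcg1 expressed mainly in brain, had 7.27, 7.04, 7.32 and 7.24, so it too was lowest with IFN-γ alone while the other 3 cultures spanned less than 0.1 log2.

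Srebf1, which encodes the lipogenic transcription factor SREBP-1, had 8.77, 8.74, 9.36 and 9.52. This was the widest upward separation among the members, since the lower GW culture stood 0.58 above the higher culture without GW. IFN-γ alone hardly moved it (-0.04). Its differences were 0.62 with GW over IFN-γ, where 2.52% of genes had a higher one, and 0.75 for the SHP siRNA culture over untreated, or 1.68-fold.

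Mylip encodes the ubiquitin ligase IDOL, which sends the low-density lipoprotein receptor to degradation. It had 7.04, 6.43, 7.10 and 7.19. The IFN-γ culture stood apart on the low side, and both GW cultures exceeded the untreated culture only slightly. The lower of them was 0.06 above untreated, although it was 0.67 above IFN-γ alone, where 2.15% of genes had a higher difference. For Mylip, as for Abcg1, a low IFN-γ array enters both the GW difference and the IFN-γ difference, with opposite signs.

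**Figure D2:**
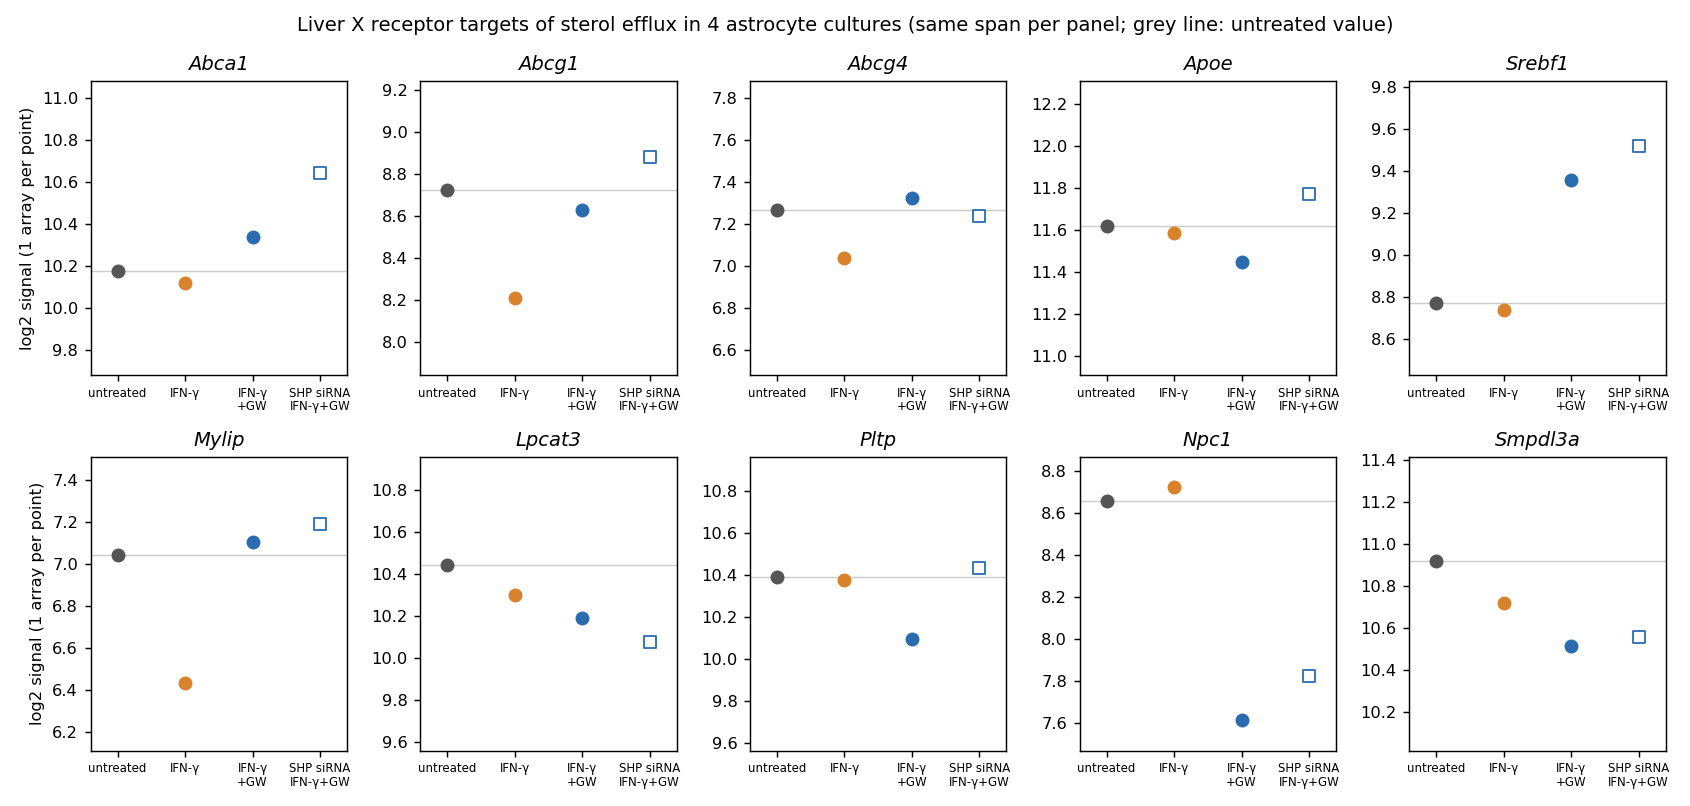
Log2 signal of each member in the 4 cultures, 1 array per point, with the same span of the vertical axis in every panel and a grey line at the untreated value. Srebf1 is high in both GW cultures, Npc1 is low in both, and Mylip and Abcg1 are low with IFN-γ alone.

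Npc1, the late endosomal and lysosomal membrane protein that releases cholesterol taken up with lipoproteins, ran the other way. Its log2 signals were 8.66, 8.72, 7.61 and 7.82. Both GW cultures lay below both others with a gap of 0.83, the widest among the 10 members, and 0.704% of genes had a lower GW difference. Its 2-fold call against IFN-γ alone was kept under every scaling tried (differences of -1.11 to -1.02), whereas against untreated it was -1.04 as deposited and -0.94 at the nearest to 0.

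Smpdl3a encodes a secreted phosphodiesterase and is a known liver X receptor target in human macrophages. It had 10.92, 10.72, 10.51 and 10.56. Lpcat3, an enzyme that puts polyunsaturated chains into membrane phospholipids, had 10.44, 10.30, 10.19 and 10.08. In both genes the GW cultures were the lowest, by gaps of 0.16 and 0.11, and no difference between any pair of cultures reached 1.5-fold.

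Apoe, the main lipid carrier protein made by astrocytes, had 11.62, 11.59, 11.45 and 11.77. Pltp, which transfers phospholipid between lipoproteins, had 10.39, 10.37, 10.09 and 10.43. Each was lowest with IFN-γ and GW under control siRNA and highest under SHP siRNA, so the 2 GW cultures lay on either side of the other cultures. Their whole ranges were 0.32 and 0.34 log2.

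Taking the cultures by GW alone, both GW cultures lay above both others for Abca1, Srebf1 and Mylip, 3 of 10 members, beside 21.4% of all genes. They lay below both others for Lpcat3, Npc1 and Smpdl3a, also 3 of 10, beside 37.7%. The cultures overlapped for the remaining 4. Both shares are near the background, and the upper one depended on scaling. After quantile normalization Abcg4 joined, giving 4 members beside 25% of all genes. After centring or cyclic loess Abcg1 and Abcg4 joined, giving 5 members beside 32.8% and 26.6% of all genes. The margins were small. The lower GW culture exceeded untreated by 0.00 and 0.02 for Abcg1, and by 0.06 and 0.02 for Abcg4. The pairs differ in siRNA and in IFN-γ within themselves, so they are not replicates.

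Promoter sequence is shown for the members that reached 1.5-fold with GW over IFN-γ (Srebf1, Mylip and Npc1). It is also shown for the members with the best match to a liver X receptor element. The classic element is a direct repeat of a hexamer spaced by 4 bases. The letters searched were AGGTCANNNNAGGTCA on both strands, in the 250 bases before each RefSeq start site of build GRCr8, and the best match was scored by mismatches over its 12 fixed letters. Windows were found for 9 of the 10 members, 12 windows in all, and Abcg1 had none in the table used. No member window held the exact motif (0 of 12), which 0.00299% of 33469 windows hold. Capitals mark the best match in each stretch, written 5′ to 3′ along the gene. For Srebf1, which has 2 start sites, the second in the table is shown. Abca1, Srebf1, Mylip and Npc1 lie on the minus strand and Smpdl3a on the plus strand.
Abca1, chr5:72596486-72596585: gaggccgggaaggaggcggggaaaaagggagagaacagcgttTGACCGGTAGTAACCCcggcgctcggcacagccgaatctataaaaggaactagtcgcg
Smpdl3a, chr20:37678810-37678909: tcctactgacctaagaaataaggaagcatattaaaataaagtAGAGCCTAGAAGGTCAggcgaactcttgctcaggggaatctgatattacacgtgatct
Npc1, chr18:3699930-3700029: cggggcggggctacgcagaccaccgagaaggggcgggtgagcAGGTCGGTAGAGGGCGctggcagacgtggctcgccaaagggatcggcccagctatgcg
Srebf1, chr10:45519059-45519158: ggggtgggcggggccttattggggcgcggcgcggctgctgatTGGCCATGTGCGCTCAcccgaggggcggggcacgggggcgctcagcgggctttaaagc
Mylip, chr17:19514540-19514639: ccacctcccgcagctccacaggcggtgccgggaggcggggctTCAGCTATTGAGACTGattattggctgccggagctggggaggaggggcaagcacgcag

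The Abca1, Smpdl3a and Npc1 windows came within 3 mismatches, as did 18.6% of all windows. The shown Srebf1 window had 4 mismatches, which 71.4% of windows match or better, and the Mylip window 5, which 99.5% match or better. In Abca1 the match lies on the opposite strand, from 70 to 55 bases before the start, where the known liver X receptor element of this gene sits in mouse and human. The GW differences of the members with 3 mismatches were 0.22 for Abca1, -0.20 for Smpdl3a and -1.11 for Npc1. Since 18.6% of all windows match as well, the search cannot show whether an element goes with direction. The single half-site AGGTCA, which overlaps the longer motif, was in 2 of 12 member windows (Abcg4 and Smpdl3a) beside 14.1% of all windows. TCACNCCAC, a sterol regulatory element, was in 0 of 12 beside 0.974%. A match is a resemblance of letters only, and these short windows do not reach distant elements.

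In 2 secondary comparisons the same arrays were paired differently. Relative to IFN-γ alone, the SHP siRNA culture with GW had 3 members at least 1.5-fold higher, beside 2.00% of all genes, namely Srebf1 (0.78), Mylip (0.75) and Abcg1 (0.67), and 1 lower, Npc1 at -0.90, beside 3.72%. Under each of the 3 other scalings Abca1 joined them, which made 4. Relative to untreated, the control siRNA culture with IFN-γ and GW had 0 members higher by 1.5-fold, beside 3.95%, with Srebf1 (0.58) at the threshold and just past it under the 3 other scalings. In that comparison Npc1 was the 1 member lower by 1.5-fold, beside 6.62%, and by 2-fold, beside 0.840%, the latter only as deposited. These comparisons reuse the arrays of the main ones and give no separate support.

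IFN-γ alone went with slightly lower signal of most members. Against the untreated culture 9 of 10 members lay below 0, beside 59.8% of all genes, with a median of -0.10 beside -0.04. Mylip was 1.52-fold lower, the only member at 1.5-fold, beside 1.59% of all genes lower by that much, and Abcg1 was 1.43-fold lower. Both lay below the middle 95% of all genes, whose lower bound was -0.48. Mylip fell short of 1.5-fold after quantile normalization and after cyclic loess, where 0 members reached it. After cyclic loess 7 members lay below 0, with Srebf1 and Pltp at 0.00 and 0.02.

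When IFN-γ and GW were both present, most members had slightly higher signal with SHP siRNA than with control siRNA. In this comparison 8 of 10 lay above 0, beside 51.5% of all genes, with a median of 0.19 beside 0.01. The highest were Pltp (0.34, or 1.27-fold), Apoe (0.32, 1.25-fold) and Abca1 (0.31, 1.24-fold). Abcg4 (-0.08) and Lpcat3 (-0.12) lay below 0. None reached 1.5-fold (0 higher beside 1.42% of all genes, 0 lower beside 1.20%), and all 10 lay inside the middle 95% of genes, from -0.46 to 0.48. The count of 8 above 0 held under every scaling tried. It was not particular to the members. As deposited, 8 of 10 other liver X receptor targets above the filter lay above 0 (median 0.09), as did 11 of 13 microglia markers (median 0.17). After cyclic loess 6 of the 10 other targets did (median 0.07), and still 11 of the 13 microglia markers (median 0.14). Among sterol synthesis genes 7 of 16 lay above 0 as deposited, and among co-regulator genes 4 of 11.

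The receptors themselves did not follow the higher targets. Nr1h3 and Nr1h2, which encode liver X receptors α and β, differed by -0.36 and -0.46 with GW over IFN-γ. Both were lower in both GW cultures than in both others. That held for 2 of the 4 receptor and partner genes above the filter, beside 37.7% of all genes, which is near the background. Nr1h3 had log2 signals of 8.26, 8.16, 7.80 and 7.83, and Nr1h2 had 9.79, 9.82, 9.36 and 9.44. Of their partners, Rxra differed by -0.22 and Rxrb by 0.21, and Rxrg stayed below the filter. None of the 4 above the filter reached 1.5-fold with IFN-γ over untreated, with GW over IFN-γ or with SHP siRNA (0 in each), but Rxra was lower by 1.5-fold in the IFN-γ with GW culture than untreated (-0.64).

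Other liver X receptor targets lay near the background with GW. Of 19 genes listed, 16 had a probe with 1 symbol and 10 passed the filter, of which 4 lay above 0, beside 42.1% of all genes, and 6 below, with a median of -0.11. After centring and after cyclic loess 5 lay on each side, with medians of -0.02 and -0.03. None was higher by 1.5-fold (0 of 10, beside 2.82% of all genes) except Vegfa after centring. By that much 1 was lower, beside 4.97%, namely Thrsp, a regulator of fatty acid synthesis, at -0.73. Thrsp was also the 1 gene lower by 1.5-fold with IFN-γ (-0.63) and the 1 gene higher by 1.5-fold with SHP siRNA (0.64). Its log2 signals of 9.89, 9.26, 8.53 and 9.17 put the untreated culture highest and the IFN-γ with GW culture lowest. The remaining 9 genes stayed within 1.5-fold in the 3 main comparisons as deposited, among them Scd (-0.27 with GW), a fatty acid desaturase and a widely used target. In the IFN-γ with GW culture over untreated, Vegfa, an angiogenic growth factor gene, was at 0.91 and the cytokine gene Il33 at -0.63. Vegfa had log2 signals of 7.90, 8.31, 8.81 and 8.46, so it was higher in both GW cultures than in both others and highest under control siRNA.

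Genes of cholesterol uptake and storage mostly lay below 0 with GW, 12 of 14, beside 57.8% of all genes, with a median of -0.16. After each of the 3 other scalings 10 of 14 did, and the share of all genes below 0 was not computed for those scalings. At 1.5-fold 2 of 14 were lower, beside 4.97% of all genes. They were Lipa (-0.88), the lysosomal lipase that frees cholesterol from its esters, and the sterol transfer gene Stard4 (-0.63). Stard4 had log2 signals of 5.73, 5.91, 5.28 and 5.59, so it passed the filter of 5.83 only through the IFN-γ culture. That culture is the baseline of the GW difference, so the filter favours a lower call for Stard4, and its size is uncertain. After centring Stard4 no longer reached 1.5-fold. Lipa had log2 signals of 10.19, 10.20, 9.32 and 10.03, so only the control siRNA culture with GW was low, and it was 0.71 higher with SHP siRNA, the 1 gene of this list at 1.5-fold there. Lipa thus differed from Npc1, its partner in lysosomal cholesterol release, which stayed low in both GW cultures. Npc2, the soluble lysosomal protein that hands cholesterol to Npc1, differed by -0.12 with GW. Scarb1, a lipoprotein receptor, was at -0.65 in the IFN-γ with GW culture over untreated.

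Sterol synthesis genes lay near the background with GW, 6 of 16 above 0 and 10 below, beside 42.1% and 57.8% of all genes. Their median was -0.07, which turned to 0.01 after centring and after cyclic loess. The 1 gene at 1.5-fold was Insig1, which was higher, beside 2.82% of all genes. Its product holds sterol regulatory element-binding proteins in the endoplasmic reticulum, and its log2 signals were 8.62, 8.22, 9.53 and 9.24. Both GW cultures were high for it, and its GW difference was 1.31. Dhcr7, of the last steps of synthesis, was at 0.64 in the SHP siRNA culture over IFN-γ alone. Nuclear receptor co-regulator genes had 8 of 11 above 0 with GW, beside 42.1% of all genes, and a median of 0.23, with 0 at 1.5-fold, beside 2.82% higher. Crebbp, an acetyltransferase co-activator, was at 0.57 and past 1.5-fold under the 3 other scalings, and Ncor1, a co-repressor, at 0.29.

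**Figure D3:**
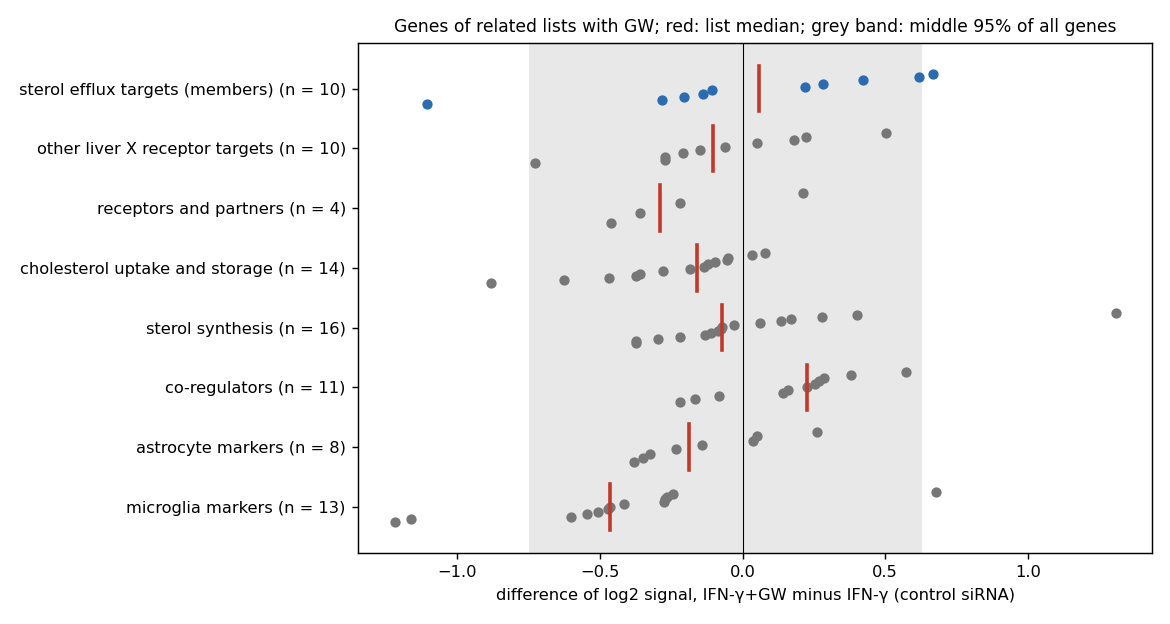
Difference of log2 signal between the IFN-γ with GW culture and the IFN-γ culture for each gene of 8 lists that passed the filter (points, spread vertically in order of value). List medians are in red and the middle 95% of all genes in grey. Genes below the filter are not plotted, so 10 of the 16 measured other liver X receptor targets appear. The members spread from -1.11 to 0.67 around a median of 0.06, and the microglia markers have the lowest median at -0.46.

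Npc1 and Srebf1 had the widest ranges over the 4 arrays among the members, 1.11 and 0.78 log2. By the Euclidean distance between mean-centred log2 signals over the 4 arrays, the genes most like Npc1 among 11790 were Ms4a6c, Pet100 and Rarres2, at distances of 0.08, 0.09 and 0.14. They differed by -1.03, -0.99 and -1.07 with GW. Those most like Srebf1 were Zbtb2, Plk4 and Bcar3, at 0.07, 0.08 and 0.09, with GW differences of 0.56, 0.56 and 0.69. With 4 arrays many genes can share a pattern, and the likeness is a description only.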

How the data were processed

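Per the labels' protocols, Trizol-extracted RNA of 4 cultures was turned into biotin-labelled sense cDNA, 1 array each. Values were deposited per probe and range from 1.14 to 13.4, and on that ground they were read as log2 signal. How the authors corrected, summarised and normalized them, and their log base, is not given in the sources used here. Of 29489 probes, 18511 carried 1 gene symbol, 575 several and 10403 none; 18394 of the first had an identifier in the RefSeq table (GRCr8), which supplied current symbols. A gene with several probes was represented by its brightest on average. Genes with a value of at least 5.83 were kept as background.

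Each comparison is a difference between 2 arrays, called at 2-fold or 1.5-fold, with no test. Precision is limited by the number of arrays. The members, thresholds and lists (5 of pathway genes, 6 of cell type markers) were chosen with earlier results of these data known. All members are named; other listed genes are named when they reached 1.5-fold in a main comparison, at most 4 per list, and further ones (receptors, Scd, Npc2, Crebbp, Ncor1, Vegfa, Il33, Scarb1, Dhcr7 and the marker levels) were chosen after their values were seen. Alternatives were quantile normalization and cyclic loess (limma 3.58.1, R 4.3.3), median centring, the mean of a gene's probes, the filter applied to members and the list mean. The counting was tested on simulated data with 200 changed genes. Other steps used Python 3.11.15, pandas 2.3.3 and numpy 2.4.6. Of the other marker lists, with GW over IFN-γ 6 of 8 oligodendrocyte lineage, 0 of 3 neuron and 2 of 2 endothelial markers above the filter lay below 0. Of all genes 57.8% did.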

Additional observations from a re-analysis of the deposited data

How the results depend on the processing

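With 1 array a group, no replicate could be left out, and a shift was judged against the robust spread of all genes' differences in the same comparison. Under the alternatives 156 of 166 values of the list (counts and medians over 6 array pairs) and all 240 single-member differences moved by less than that spread, or by less than 1.5 times for counts. The exceptions were these. Against untreated, 1 member (Mylip) was lower by 1.5-fold with IFN-γ, and 0 after quantile normalization and cyclic loess. For IFN-γ with GW against untreated, 1 member (Npc1) was lower by 2-fold and 0 higher by 1.5-fold, which became 0 and 1 (Srebf1) after quantile normalization, centring and cyclic loess. The 3 members with both GW cultures above both others became 5 after centring and after cyclic loess. The cause was not tested. Scaling moved the median of all genes by less than 0.1 log2. A planned pseudocount was not run, since the values are already logs. All members passed the filter and had 1 probe, so those alternatives could not change their values. These unchanged values are included in the counts of unmoved values above. No paired analysis was possible because each group has 1 array. The background level of the arrays is unknown, which limits low values such as those of Nr0b2.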
